A study of Mus musculus with 2 samples.

Results

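The genes described here encode the T cell receptor complex and the molecules that act directly beneath it in mouse Th17 cells, a helper T cell lineage named for its IL-17. They were chosen by name, as the rows of the deposited comparison of Malat1 knockout with wild-type Th17 cells that match a list of 36 genes, and all 36 were among the 16385 genes of the table. The study set RNA of cells lacking Malat1, a long non-coding RNA retained in the nucleus, against RNA of wild-type cells. The samples were 1 group of 2 knockout libraries, which the series' design text calls biological replicates made independently. They came from C57BL/6 naive CD4+ T cells cultured for 72 h in coated plates with 0.25 µg/mL of anti-CD3ε and 1 µg/mL of anti-CD28, in the presence of IL-6 at 20 ng/mL and TGF-β at 0.1 ng/mL, so every culture had been stimulated through the receptor whose genes are described. The sources used here state neither the age and sex of the mice, nor how the Malat1 allele was made, nor how many mice went into a library. The wild-type Th17 libraries of the authors' comparison belong to another series, so genotype and series cannot be told apart. Malat1 itself is not analysed here, and the genotype rests on the titles (a second label of replicate 2 reads Malat2).

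When a peptide engages the T cell receptor, the kinase Lck, brought in by the co-receptor CD4, phosphorylates the cytoplasmic tails of the CD3 chains and CD247, and the kinase Zap70 binds there. Zap70 phosphorylates the scaffolds LAT and SLP-76 (the product of Lcp2), on which phospholipase C-γ1, Vav1 and other effectors assemble. Calcium then activates NFAT, diacylglycerol activates Ras through Rasgrp1 and protein kinase C-θ (Prkcq), and the latter acts through the complex of CARMA1, Bcl10 and Malt1 to release NF-κB from its inhibitor IκBα (Nfkbia). The phosphatases encoded by Ptpn6 and Ptpn22, the kinase Csk and the ubiquitin ligases Cbl and Cbl-b restrain the pathway. IκBα is itself a classical target gene of NF-κB, which closes a negative feedback loop.

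Of the 6 genes of the NF-κB group, 4 had a promoter sequence. A motif bound by NF-κB lay near the start sites of 3 of these 4, whose sequences are shown. Promoter sequences from RefSeq (GRCm38.p6), each 250 bases before to 50 after a start site, matched 30 of the 36 members. The motif searched, on both strands, was a form of the κB motif with the letters GGG, then any 3 bases, then TTCC. It was present at 3 of these 30 members (10%), Rel, Nfkbia and Nfkb2, beside 6.31% of all 27025 genes with a promoter in the table. The difference was not tested, and a count of 3 does not set the members apart. Counted by start site, 5 of 42 member entries held it, 3 of them of Nfkb2, beside 5.56% of all 32851 entries. The motif was chosen after 4 spellings of it and 3 other motifs had been searched. Each sequence is written 5′ to 3′ on the gene's strand, with the matches in capitals, and a match is a description of the letters and not a shown binding site.
Rel, c-Rel, chr11:23770920-23771219, minus strand: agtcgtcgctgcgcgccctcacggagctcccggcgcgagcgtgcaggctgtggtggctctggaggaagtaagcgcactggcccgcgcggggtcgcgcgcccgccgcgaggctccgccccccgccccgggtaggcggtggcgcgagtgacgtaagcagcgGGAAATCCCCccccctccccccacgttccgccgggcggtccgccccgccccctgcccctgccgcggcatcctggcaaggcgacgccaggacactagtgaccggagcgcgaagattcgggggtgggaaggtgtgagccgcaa
Nfkbia, IκBα, chr12:55492598-55492897, minus strand: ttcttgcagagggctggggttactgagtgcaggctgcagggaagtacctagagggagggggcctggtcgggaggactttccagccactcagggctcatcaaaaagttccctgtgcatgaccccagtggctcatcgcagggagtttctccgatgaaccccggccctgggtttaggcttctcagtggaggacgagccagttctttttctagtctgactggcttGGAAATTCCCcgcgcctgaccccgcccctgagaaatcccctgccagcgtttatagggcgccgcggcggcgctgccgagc
Nfkb2, p100 and p52, chr19:46304487-46304786, plus strand, the first of its 3 start sites in the table: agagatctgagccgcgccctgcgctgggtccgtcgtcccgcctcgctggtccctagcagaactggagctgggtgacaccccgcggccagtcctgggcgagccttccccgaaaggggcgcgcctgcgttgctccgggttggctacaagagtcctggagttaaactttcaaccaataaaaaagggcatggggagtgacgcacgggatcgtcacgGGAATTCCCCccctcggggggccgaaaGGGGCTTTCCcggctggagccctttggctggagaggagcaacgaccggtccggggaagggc
The match of Nfkbia lay at bases -29 to -20 from the start site and that of Rel at -91 to -82. Nfkb2 held a pair in this window, at -38 to -29 and -11 to -2, and the windows of its other 2 start sites, which overlap and share 1 match, held the motif too.

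The knockout libraries held 21554852 counts (replicate 1) and 26916169 counts (replicate 2). The 36 genes took 1.012% of the counts of replicate 1 (95% Wilson interval 1.008 to 1.016) and 1.037% of those of replicate 2 (1.033 to 1.041), intervals that cover counting error only. The lowest count of any member in a library was 894 and the highest 35031, so all 36 were well above any limit of detection. By knockout mean they ranked between 65 (Ptprc) and 5159 (Ubash3a) among all genes, with a median rank of 890.

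The markers of the labelled cell type were abundant. Il17f stood at normalized counts of 63523 and 60211 in replicates 1 and 2, and Il17a at 26195 and 28631. Of the CD8 T cell genes, Cd8a had 6 and 4 counts and Cd8b1 had 283 and 376. Of the 4 NK cell genes, Ncr1 and Klrb1c had 0 counts in both libraries, Klrk1 had 44 and 51, and Eomes 38 and 57. The B cell genes Cd79a and Cd79b had at most 6 counts in a library. The 6 myeloid markers summed to 65.8 and 74.4 normalized counts, most of it Cd14. In the dendritic list H2-Ab1 stood at 2155 and 1779 while its partner H2-Aa stood at 1.93 and 6.83. The T cell receptor constant genes and the gamma-delta markers are not analysed here.

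The knockout cells expressed the receptor complex, its kinases and its scaffolds at levels that differed by over an order of magnitude per length. The scale for comparing genes is the normalized count per kb of exon union (the merged exons of all annotated transcripts). On it, Cd2 (a costimulatory adhesion receptor) was the highest at 5124 ± 673, followed by Lck at 4303 ± 201, Nfkbia at 3912 ± 170, Cd4 at 3526 ± 103 and Lat at 2753 ± 27.0 (SD, n = 2 for each). Both libraries of each of these 5 genes lay above both libraries of the next among them. With the longest transcript as length, Ptprc and Nfkb1 ranked 4 and 5. At the other end stood the UBASH3 genes, Ubash3b at 127 ± 21.4 and Ubash3a at 81.4 ± 6.23, with Nfatc2 at 237 ± 16.9 and Rasgrp1 at 271 ± 0.335 next (SD, n = 2 for each).

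**Figure D1:**
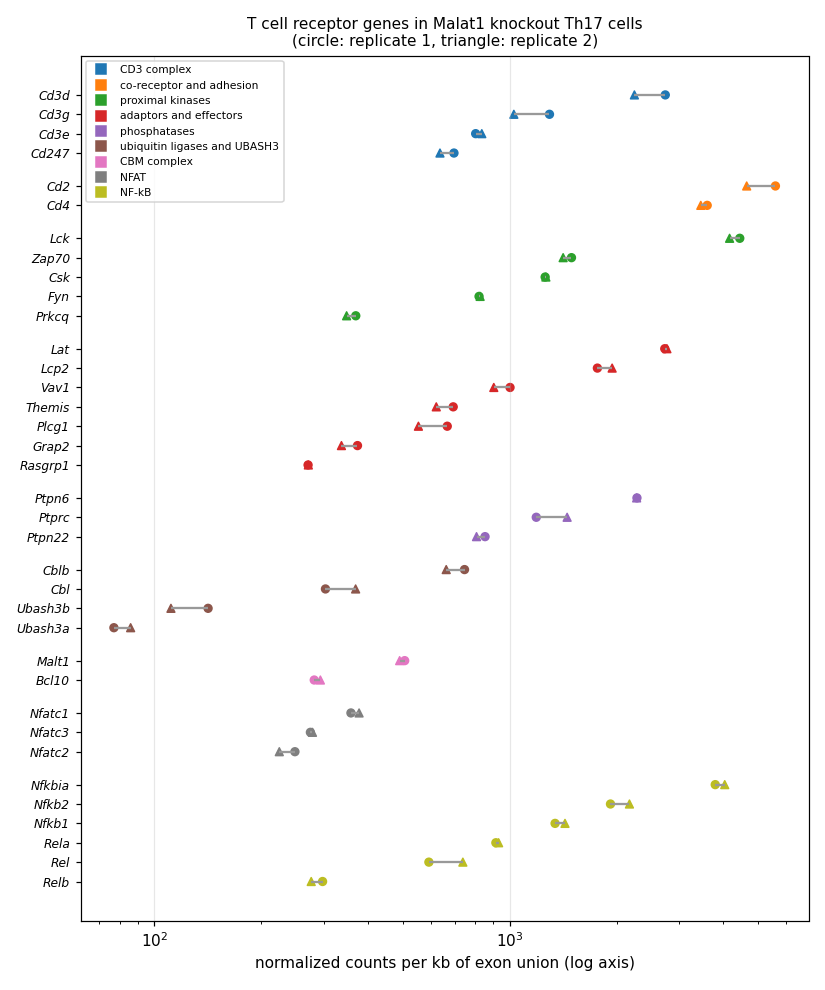
Levels of the 36 genes in the Malat1 knockout Th17 libraries, in normalized counts per kb of exon union on a log axis, with a circle for replicate 1, a triangle for replicate 2 and a line joining them, coloured by role. Cd2, Lck, Nfkbia and Cd4 stand highest, at 3453 or more in both libraries, and Ubash3a and Ubash3b lowest, below 142 in both.

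The 4 signalling chains were unequal. Cd3d (chromosome 9, 44981786 to 44987339, GRCm38), encoding CD3δ, stood at normalized counts of 4978 in replicate 1 and 4075 in replicate 2. Cd3g (chromosome 9, 44969572 to 44980431), encoding CD3γ, had 4233 and 3360, and Cd3e (chromosome 9, 44998740 to 45009627), encoding CD3ε, had 3275 and 3407. These 3 genes are neighbours, with Cd3g and Cd3d read in opposite directions, and Cd3d and Cd3g were both lower in replicate 2 while Cd3e was not. Cd247 (chromosome 1), encoding the ζ chain, which carries more of the phosphorylation motifs than any CD3 chain, had 3716 and 3393. Per kb, the level of Cd3d was 3.05 times that of Cd3e, 2.15 times that of Cd3g and 3.74 times that of Cd247, and the ratio over Cd247 fell to 2.33 when the longest transcript was taken as length. Of the exon union of Cd247, 3007 bases of 5329 also lie in Pou2f1 on the opposite strand, at a knockout mean of 665 normalized counts, and since no source states a strand setting, reads there cannot be assigned with certainty.

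Lck was the dominant Src family kinase of the pair. It had normalized counts of 13019 and 12188, against 3579 and 3604 for Fyn, a difference of 5.23-fold per kb of exon union (5.42 in replicate 1 and 5.04 in replicate 2). Zap70 had 4468 and 4233, and the level of Lck per kb was 2.96 times that of Zap70. Csk, which phosphorylates the inhibitory tyrosine of Lck, was nearly equal in the libraries at 4705 and 4728, and Prkcq stood at 2613 and 2462. The order Lck, Zap70, Csk, Fyn, Prkcq by level per kb was the same in both libraries.

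Among the adaptors, Lat had 7564 and 7670 normalized counts and Lcp2 had 7876 and 8667. Grap2, which encodes the Gads adaptor that links LAT to SLP-76, had 2329 and 2099. Themis, whose product binds the phosphatase SHP-1 and is needed in thymocyte selection, had 8106 and 7264. The effectors Plcg1 (5245 and 4351), Vav1 (3698 and 3329) and Rasgrp1 (1517 and 1519) were lower per kb than Lat in both libraries. Lat and Rasgrp1 differed little between the libraries, and Plcg1 was clearly higher in replicate 1.

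The highest normalized count, not adjusted for length, was that of Ptprc, encoding the phosphatase CD45 that activates Lck, with 21769 and 26588 normalized counts, although per kb of its long exon union it ranked 12. Ptpn6, encoding SHP-1, had 6396 and 6383, and Ptpn22, whose product dephosphorylates Lck and Zap70, had 5778 and 5468. Of the Cbl ligases, Cblb had 7821 and 6946 and Cbl 3743 and 4551, so Cblb exceeded Cbl 2.46-fold per kb in replicate 1 and 1.80-fold in replicate 2. Ubash3b had 1038 and 816, and Ubash3a had 865 and 964, and per kb Ubash3b was above Ubash3a in both libraries. Malt1 had 9140 and 8846, and Bcl10 1287 and 1339, with Malt1 the higher per kb by 1.73-fold.

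The 3 NFAT genes lay close together, at 367 ± 13.7 per kb for Nfatc1, 277 ± 2.65 for Nfatc3 and 237 ± 16.9 for Nfatc2 (SD, n = 2 for each). With the longest transcript as length, Nfatc1 exceeded Nfatc3 by only 1.05-fold. The NF-κB genes were spread more widely. Nfkb1, encoding p105 and p50, had 16195 and 17271 normalized counts, Nfkb2 8815 and 9967, and Nfkbia 6104 and 6492. Of the subunits with a transactivation domain, Rel had 4425 and 5515, Rela 2810 and 2861, and Relb 1156 and 1074. Per kb, Rela was 1.39 times Rel and 3.22 times Relb, while Nfkb2 exceeded Nfkb1 1.48-fold with the exon union and fell below it, at a ratio of 0.605, with the longest transcript.

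The deposited comparison set the knockout libraries against wild-type libraries of another series, and none of the 36 passed its test in either direction. The 2 sides differed in series as well as in Malat1, so dependence of these genes on Malat1 by itself was not tested. In the authors' deposited table, 0 of the 36 had an adjusted p under 0.05 (DESeq2, Wald statistic, Benjamini-Hochberg over all genes), beside 0.159% of the 14481 genes with an adjusted p (1 higher, 0.00691%, and 22 lower, 0.152%). The count of 0 is near that background and does not set the members apart. Every member had an adjusted p of 1.00 when rounded to 3 digits in the authors' deposited table (DESeq2). At an unadjusted p under 0.05 the count was also 0 in the authors' deposited table, beside 2.11% of all genes. No other tool was run, because no wild-type library was analysed here.

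The sizes of the differences were small and bounded. Log2 fold changes, knockout over wild type, ran in the authors' deposited table from -0.12 for Fyn to 0.28 for Ubash3b, or from 0.922-fold to 1.21-fold. Their standard errors ran from 0.083 (Cd4) to 0.35 (Ubash3b) in the authors' deposited table, with a median of 0.15, against 0.19 in the 5426 genes at least as abundant as the lowest member. The 95% intervals (from the deposited standard errors) covered 0 for all 36 genes and stayed within 1.5-fold either way for 34 of them. The exceptions were Ubash3b, from -0.41 to 0.96, and Ubash3a, from -0.46 to 0.68, on the log2 scale of the authors' deposited table, and both stayed within 2-fold. The Wald statistic had an SD of 0.82 in the 5426 genes, below the 1 that the test assumes, and a p above the threshold does not show that a gene did not differ.

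**Figure D2:**
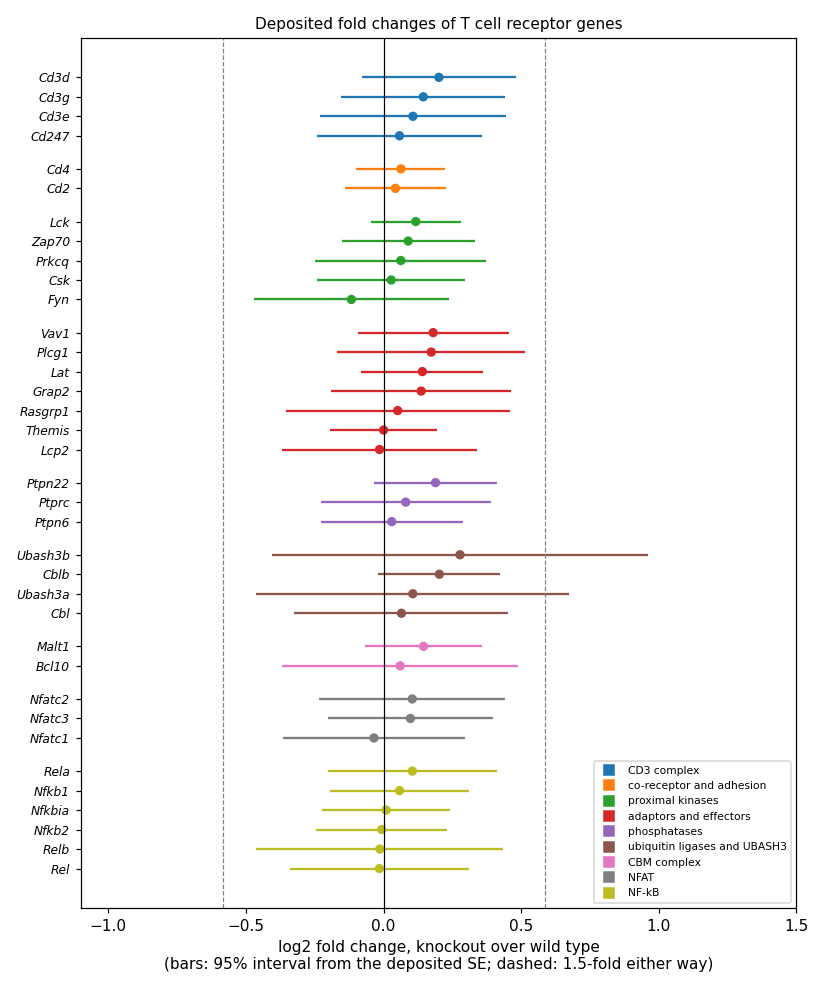
Log2 fold change of each gene, knockout over wild type, from the authors' deposited table, grouped and coloured by role, with bars for the 95% interval and dashed lines at 1.5-fold either way. Each bar crosses 0, and those of Ubash3b and Ubash3a alone reach past a dashed line.

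The receptor chains, Cd4 and Cd2 had fitted fold changes just above 0, none of which passed. By the authors' deposited table, log2 fold changes were 0.20 (SE 0.14) for Cd3d, 0.14 (SE 0.15) for Cd3g, 0.11 (SE 0.17) for Cd3e and 0.058 (SE 0.15) for Cd247. Cd4 was the most precisely measured member, at 0.063 (SE 0.083, 95% interval -0.099 to 0.22) in the authors' deposited table, and Cd2 stood at 0.043 (SE 0.093). The normalized count of Cd4 was 14511 and 13921 in the knockout libraries, with an implied wild-type mean of 13612, the value that the authors' mean over the 4 libraries of their fit leaves for the wild type. For Cd3d and Cd3g the knockout libraries differed more from each other than their mean did from the implied wild-type means of 3921 and 3416. The log2 ratio of replicate 2 alone to the implied wild-type mean lay below 0 for Cd3g (-0.024), Cd247 (-0.018) and Cd2 (-0.098).

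Among the kinases, Lck stood at 0.12 (SE 0.084), Zap70 at 0.090 (SE 0.12), Prkcq at 0.063 (SE 0.16) and Csk at 0.028 (SE 0.14) in the authors' deposited table. Fyn, at -0.12 (SE 0.18) in the authors' deposited table, had the lowest value of the 36, and was the 1 member with both knockout libraries below its implied wild-type mean, 3941. Vav1 (0.18, SE 0.14), Plcg1 (0.17, SE 0.17), Lat (0.14, SE 0.11) and Grap2 (0.14, SE 0.17) had the highest values of the adaptors and effectors in the authors' deposited table. Rasgrp1 (0.051, SE 0.21), Themis (0.00027, SE 0.099) and Lcp2 (-0.014, SE 0.18) lay nearest 0 there, also by the authors' deposited table. None of these 12 intervals excluded 0.

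The 2 smallest unadjusted p-values belonged to genes of negative regulators. Cblb, the ligase that sets the need for costimulation, had a log2 fold change of 0.20 (SE 0.11, unadjusted p 0.0728) in the authors' deposited table, and both knockout values lay above its implied wild-type mean of 6406. Ptpn22 stood at 0.19 (SE 0.11, unadjusted p 0.0962) in the authors' deposited table, with an implied wild-type mean of 4935 below both of its knockout values. Ubash3b had the highest fold change, 0.28 (SE 0.35), but also the widest interval in the authors' deposited table, and its knockout libraries differed 0.35 on the log2 scale. Cbl (0.065, SE 0.20), Ubash3a (0.11, SE 0.29), Ptprc (0.081, SE 0.16) and Ptpn6 (0.030, SE 0.13) completed the phosphatases, ubiquitin ligases and UBASH3 genes in the authors' deposited table. Csk and Nfkbia, whose products also restrain the pathway, stood at 0.028 and 0.0093 in the authors' deposited table.

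The NF-κB genes had fold changes on both sides of 0. Their values in the authors' deposited table were, as log2 fold changes, 0.10 (SE 0.16) for Rela, 0.058 (SE 0.13) for Nfkb1, 0.0093 (SE 0.12) for Nfkbia, -0.0065 (SE 0.12) for Nfkb2, -0.013 (SE 0.23) for Relb and -0.015 (SE 0.17) for Rel. For Rel, whose start region is printed above, the 95% interval ran from -0.34 to 0.31 in the authors' deposited table, and the log2 ratio to the implied wild-type mean was 0.14 without replicate 1 and -0.17 without replicate 2. Malt1 stood at 0.15 (SE 0.11) and Bcl10 at 0.061 (SE 0.22), and the NFAT genes at 0.10 (Nfatc2, SE 0.17), 0.098 (Nfatc3, SE 0.15) and -0.035 (Nfatc1, SE 0.17) in the authors' deposited table. Whether the groups of roles differ from each other was not tested.

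As a list, 30 of the 36 log2 fold changes were above 0 and 6 below, with a median of 0.073, in the authors' deposited table. Of the 14481 genes with an adjusted p, 44.7% were above 0 (median -0.024), and of the 5426 genes at least as abundant as the lowest member 53.6% were (median 0.010), by the authors' deposited table. Neither set was matched to the members in abundance. Both knockout libraries lay above the implied wild-type mean for 23 members, below it for 1 and on either side of it for 12. The first of these is 63.9% of the members, beside 37.4% of the 5426 genes, and the list has no test, because its members were chosen by name with earlier results known. In bulk RNA, a larger share of cells of a type and more RNA per cell cannot be told apart. The 235 genes nearly absent from knockout, none of them a member, took 0.637% of the implied wild-type total and 0.00119% of the knockout total. Dividing that share out of the wild-type values gave a members' median log2 ratio to the implied wild-type mean of 0.065, with 29 above 0. Without that division the same ratio had a median of 0.074, also with 29 above 0. The source of those 235 genes' RNA was not tested. Values of cell type markers are given beside the list. Il17f alone among these markers had an adjusted p under 0.05 in the authors' deposited table (DESeq2). Il17f, the 1 gene called higher in the authors' deposited table (log2 fold change 0.40, adjusted p 0.00124, DESeq2), had an implied wild-type mean of 46851, and Il17a one of 24826, below both knockout values for each gene. The 4 erythroid and platelet markers summed to 6.77 and 8.35 normalized counts in knockout and 84.9 in the implied wild type, with Hbb-bs at an implied 62.2. The 6 myeloid markers had an implied wild-type sum of 88.3, and H2-Aa an implied mean of 58.1. The part of these cell types in the members' values was not tested.

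**Figure D3:**
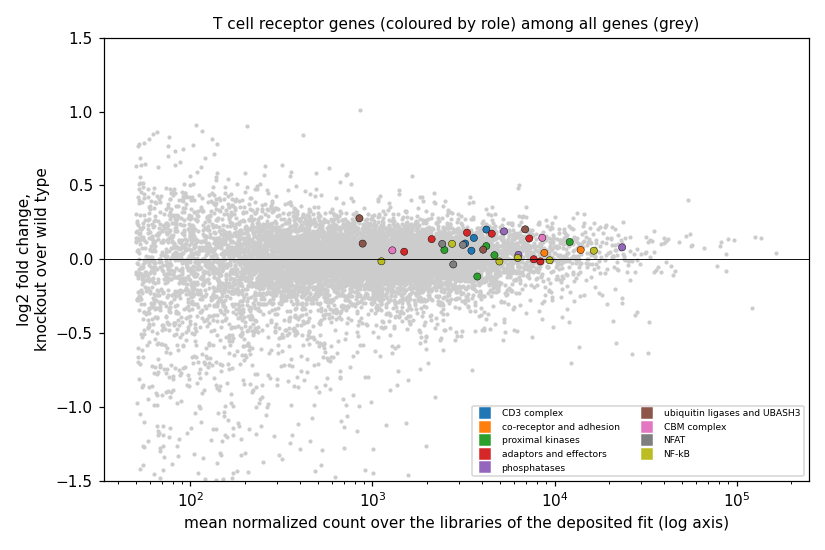
Log2 fold change, knockout over wild type, against the mean normalized count on a log axis, both from the authors' deposited table, for 10978 genes with a mean of at least 50 in grey and the 36 genes in colour by role (394 genes lie beyond the limits of 1.5 either way). The 36 lie between -0.12 and 0.28, within the grey cloud, with 30 above the line at 0.

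The difference between the knockout libraries is given beside that between the genotypes. The 2 measures are unlike, because the first compares single libraries and the second compares groups of libraries. The median absolute log2 ratio of replicate 2 to replicate 1 was 0.10 over the 36 genes and 0.086 over the 5426 genes, beside a median absolute log2 fold change of 0.085 for the 36 in the authors' deposited table. For 26 members (72.2%) the 95% interval of counting error excluded 0, with 17 higher in replicate 1 and 9 in replicate 2, beside 51.5% of the 5426 genes. This compares these libraries and not conditions, and the interval leaves out the variation between cultures. The interval is also narrower for more abundant genes, and the 5426 genes were not matched to the members in abundance. Ubash3b (-0.35), Cd3g (-0.33), Cd3d (-0.29), Plcg1 (-0.27) and Cd2 (-0.27) stood lowest in replicate 2 relative to replicate 1, and Rel (0.32), Ptprc (0.29), Cbl (0.28) and Nfkb2 (0.18) highest, as log2 ratios of normalized counts. In the NF-κB group, 5 of 6 log2 ratios lay above 0, Relb being the exception at -0.11, and of the receptor chains Cd3e alone did, at 0.057. Rasgrp1 (0.0025), Ptpn6 (-0.0030) and Csk (0.0069) were equal within counting error.

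**Figure D4:**
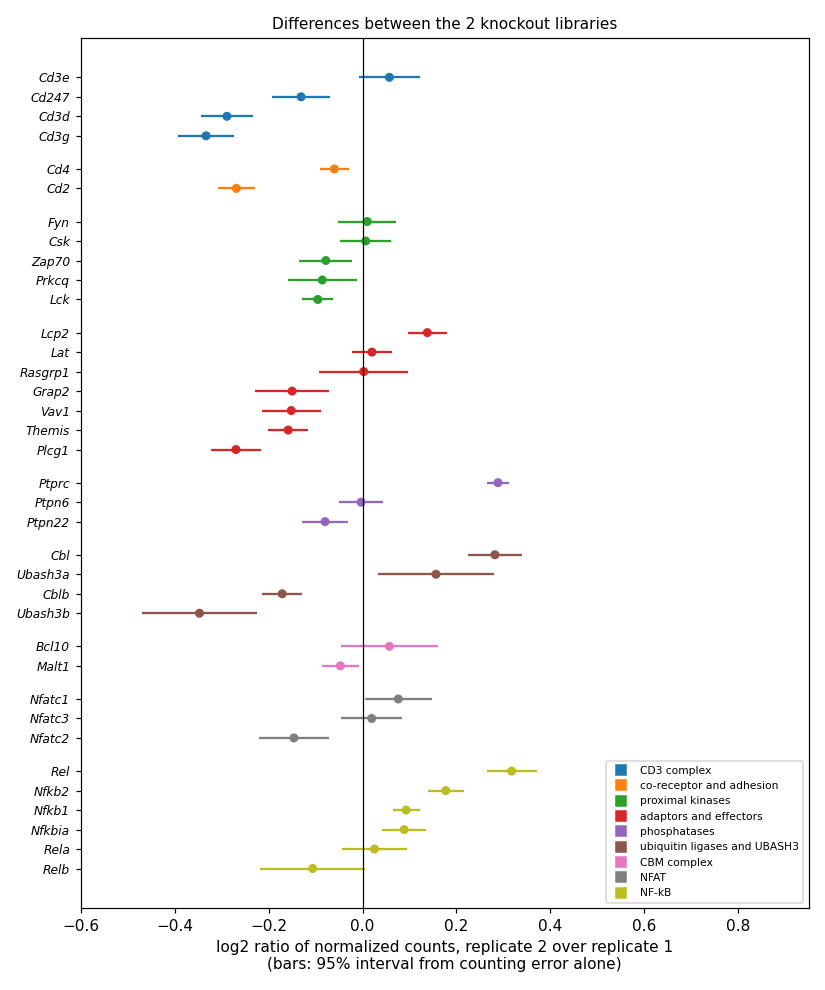
Log2 ratio of normalized counts, replicate 2 over replicate 1 of the Malat1 knockout libraries, for each of the 36 genes, grouped and coloured by role, with bars for the 95% interval from counting error alone. Ubash3b and Cd3g lie lowest, at -0.35 and -0.33, and Rel, Ptprc and Cbl highest, at 0.32, 0.29 and 0.28.

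The members also differed in base composition and position. GC content of the longest transcript ran from 35.8% (Malt1) to 60.1% (Csk), with a median of 49.7% against 49.2% in the 5426 genes. Across the 36 genes, Pearson's r with GC content was -0.089 for the log2 fold change of the authors' deposited table and -0.049 for the ratio between the libraries, where the points share the libraries. Over the 5426 genes these were 0.15 and -0.33. The genes lay on 16 chromosomes, with 6 on chromosome 9 (Cd3d, Cd3e, Cd3g, Cbl, Ubash3b and Csk). For 8 members part of the exon union also belonged to a gene on the opposite strand, at most 18.1% of it for 7 of them.

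Other genes of the pathway gave 0 calls too. Of 100 listed, 97 were in the table, and 0 passed an adjusted p of 0.05 in the authors' deposited table (DESeq2), with 2 higher and 0 lower at an unadjusted p under 0.05. That is 2.06% of the list, near the 2.11% of all genes. These 2 were Cd5 and Cd6, scavenger receptor family members, at 0.18 (SE 0.081) and 0.17 (SE 0.087) in the authors' deposited table, with knockout values of 19916 and 19393 for Cd5 and 14904 and 14886 for Cd6. Next came Ppp3ca, a catalytic subunit of calcineurin, at -0.85 (SE 0.44), and Pik3cd, the phosphoinositide 3-kinase subunit p110δ, at 0.23 (SE 0.12), in the authors' deposited table. Dgka, which removes diacylglycerol, stood at 0.24 (SE 0.13) and Rac2, a small GTPase of the cytoskeleton, at 0.16 (SE 0.090) in the authors' deposited table. Ppp3ca had 416 and 346 normalized counts in the knockout libraries, against an implied wild-type mean of 711. Of the 97 genes, 55 were above 0 and 42 below in the authors' deposited table, with a median of 0.015. Above 0 were 12 of 21 adaptors, 13 of 18 genes of NF-κB control, 10 of 16 lipid and Ras-MAPK genes, 5 of 14 calcium signalling genes and 7 of 9 kinases. So were 4 of 7 cytoskeleton genes, 3 of 5 phosphatases, 0 of 5 ubiquitin ligase genes and 1 of 2 receptor chains, beside 44.7% of all genes with an adjusted p and 53.6% of the 5426 abundant genes, with no test of these subgroups.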

How the data were processed

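RNA of 2 Malat1 knockout Th17 libraries was sequenced after ribosome depletion and the KAPA Hyper Prep kit, per the labels' protocols. The authors deposited raw counts of reads per gene, and normalized counts (a non-negative signal, in which a library's counts are divided by 1 size factor). For knockout over wild type the authors also deposited log2 fold changes with standard errors, the Wald score and, on their own scale, each p-value and adjusted p. The submitters' processing notes name STAR 2.6.1a, featureCounts, DESeq2 1.18.1 and mm10. The sources used here state no annotation, strand setting or treatment of multi-mapped reads, and a count that ignores strand would mix overlapping genes. The deposited comparison is labelled multifactor, but the sources used here do not name the factors of its model.

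Another 4 columns of per-sample values, of libraries outside these samples, were left unread, so no test between genotypes was run. The implied wild-type mean was computed from the authors' mean over 4 libraries and both knockout values. Lengths, coordinates and GC content came from GENCODE M21 (GRCm38), for all but 14 genes by ID. The GC trend was a lowess curve (span 0.3, genes with a mean of at least 50, statsmodels 0.14.6), tested on simulated data. Alternative normalization used edgeR 4.0.16 in R 4.3.3. Genes nearly absent from knockout had an implied wild-type mean of at least 100 and a knockout mean under 2% of it. Depth was 21554852 and 26916169 counts, and with 2 libraries the SD is itself uncertain. All 36 members are named, and of the wider list the 6 genes with the smallest p-values. The members, lists and tests were chosen with earlier results of these data known.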

Additional observations from a re-analysis of the deposited data

How the results depend on the processing

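The count of 0 called members was also 0 in every alternative run: an adjusted p under 0.1, an unadjusted p under 0.05, adjustment over all genes, genes with a mean of at least 50, and recomputed p-values after subtracting the GC trend or the median of all genes, or leaving out nearly absent genes (the last chosen after seeing the data). The wider pathway list gave 0, and 2 at an unadjusted p under 0.05. The members' median log2 fold change, 0.073, ranged from 0.065 to 0.085 over the alternatives that keep both replicates and from 0.058 to 0.088 without one replicate, and the number above 0 from 28 to 30, or 24 of the 28 members that overlap no opposite-strand gene. A value without 1 replicate is the log2 ratio of the other library to the implied wild-type mean, and no fold change was refitted. Without replicate 1 this ratio had the opposite sign to the fitted fold change for 8 members (Cd3g, Cd247, Cd2, Lcp2, Themis, Nfatc1, Nfkb2 and Rel). Without replicate 2 it did for 4 (Ptprc, Cbl, Relb and Nfkbia). With the GC trend removed, the sign of 4 fold changes turned (Csk, Ptpn6, Rel and Nfkbia). None of these members was called. The median normalized count of the members was 4439, and 4292 and 4447 in single libraries. With the longest transcript as length, 8 of the 10 highest members per kb were shared. The median log2 ratio between the libraries was -0.025, and 0.0045 with counts scaled to the library totals and -0.020 with TMM factors. No paired analysis was possible because only 1 group of samples is used here, and leaving out a library could not be fitted in the authors' test.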
